A study of Mus musculus with 6 samples.

Results

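The glutaredoxin and thioredoxin systems were examined here through 10 genes, picked by symbol from a deposited table of 22984 genes, and all 10 were listed. They were the glutaredoxins Glrx2, Glrx, Glrx3 and Glrx5, the thioredoxins Txn1 and Txn2, the thioredoxin reductases Txnrd1, Txnrd2 and Txnrd3, and the thioredoxin-interacting protein gene Txnip. RNA was sequenced from mouse bone marrow mesenchymal stem cells, stromal precursors of the marrow that grow attached to plastic and give rise to osteoblasts, adipocytes and chondrocytes, in 3 libraries of genotype Grx2-/- and 3 libraries of genotype Grx2+/+. Grx2 is the protein name of the product of Glrx2. The labels give no other allele, no treatment, age or passage, and do not state how the deletion was made or what the prefix O in the design's cell name stands for. They do not tell if each replicate had its own animal or culture, and the p-values cover no more than the variation among these libraries, which may be technical. Values are FPKM (fragments counted on a gene, scaled to gene length and library depth), and whole reads worked back from them gave 40797879 to 41794919 reads per library.

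Both systems move electrons from NADPH to protein thiols. Glutaredoxins use glutathione and act mainly on disulfides formed between a protein and glutathione, and the members with a single active-site cysteine carry iron-sulfur clusters. Thioredoxins reduce protein disulfides and are themselves recharged by thioredoxin reductases, which are selenoproteins, while Txnip binds reduced thioredoxin and blocks it. Glrx2, Glrx5, Txn2 and Txnrd2 encode mainly mitochondrial proteins, and Glrx, Glrx3, Txn1 and Txnrd1 mainly cytosolic ones.

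In Grx2-/- cells Glrx2 transcript was almost absent, and 4 other members passed as higher under every alternative that tested them: Txnip at 2.99 times the Grx2+/+ level, Glrx at 2.81 times, Txnrd1 at 1.82 times and Txnrd3 at 1.32 times. Glrx3, Txn1 and Txn2 were higher by 7.78% to 12.7%, differences that did not pass under other scalings of the libraries. The mitochondrial members Glrx5 and Txnrd2 did not pass the test. In all, 8 of the 10 members passed (limma, two-sided, Benjamini-Hochberg adjusted p under 0.05), 7 higher and 1 lower, where 67.4% of the 11083 genes tested passed, 42.7% higher and 24.6% lower. The 1 lower was Glrx2, the deleted gene, whose outcome was set by the design. Of the 9 other members, 7 passed. In 8 members, Glrx2 among them, the libraries of the genotypes did not overlap, as in 73.1% of all tested genes. Such counts are near the background of the table, and nothing about the family is read from them. The median log2 fold change was 0.16 over the members and 0.085 over all tested genes.

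Some facts of the libraries bear on every value below. The mesenchymal genes Col1a1, Pdgfrb, Thy1 and Prrx1 were present in all libraries, but markers of this type changed several-fold in both directions. Thy1 was higher, at 167 FPKM in Grx2-/- libraries and 11.85 FPKM in Grx2+/+ libraries. Pdgfra was higher too, at 21.96 FPKM in Grx2-/- libraries and 7.70 FPKM in Grx2+/+ libraries. Nt5e was lower, at 2.10 FPKM in Grx2-/- libraries and 10.84 FPKM in Grx2+/+ libraries. Lepr, a marker of marrow stroma, was at 0.0351 FPKM in Grx2-/- libraries and 3.83 FPKM in Grx2+/+ libraries. Of 10 mesenchymal markers 3 passed as higher and 6 as lower, beside 42.7% higher and 24.6% lower over all tested genes. Lepr, counted as lower, met the filter on low values only through the Grx2+/+ libraries. The summed level of the markers was 4099 to 4775 FPKM in Grx2-/- libraries, against 6828 to 7878 FPKM in Grx2+/+ libraries. Most of that sum was Col1a1 and Col1a2, so it does not describe the other markers. These collagen genes were at 2164 and 1850 FPKM in Grx2-/- libraries, against 3757 and 3427 FPKM in Grx2+/+ libraries. Macrophage markers were present too. Of 10, 8 passed as higher and 0 as lower, beside 42.7% higher and 24.6% lower over all tested genes. C1qa, at 40.2 FPKM in Grx2-/- libraries and 48.1 FPKM in Grx2+/+ libraries, and Mertk, at 2.46 FPKM in both, did not pass. All 10 summed to 2460 to 3351 FPKM in Grx2-/- libraries, against 1513 to 1633 FPKM in Grx2+/+ libraries. Most of that sum was Lyz2, at 2085 FPKM in Grx2-/- libraries and 1195 FPKM in Grx2+/+ libraries. Neutrophil markers summed to 4.38 to 6.79 FPKM in Grx2-/- libraries, with Retnlg and Ly6g at 0, against 917.5 to 2660 FPKM in Grx2+/+ libraries, and endothelial markers to 5.06 to 5.78 FPKM, with Tie1 at 0, against 23.1 to 28.3 FPKM. The endothelial genes Tek and Vwf were higher instead, at 0.609 and 1.96 FPKM in Grx2-/- libraries, against 0.265 and 1.71 FPKM in Grx2+/+ libraries. Tek fell below the filter on low values, and Vwf did not pass the test. Most of these neutrophil and endothelial markers met the filter on low values only through the Grx2+/+ libraries, so no count of calls is read from them. Among erythroid and B cell markers Ebf1, which marrow stroma also expresses, passed as higher, at 2.53 FPKM in Grx2-/- libraries and 1.42 FPKM in Grx2+/+ libraries. Hba-a1, Hbb-bs and Ms4a1 were at 0 in Grx2-/- libraries and near 0 in Grx2+/+ libraries, at 0.116, 0.114 and 0.0272 FPKM. The part of these cell types in the changes of the redox genes was not tested, and in bulk RNA fewer cells of a type and less RNA per cell cannot be told apart. Replicate 1 of Grx2-/- and replicate 2 of Grx2+/+ stood furthest from their groups.

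**Figure D1:**
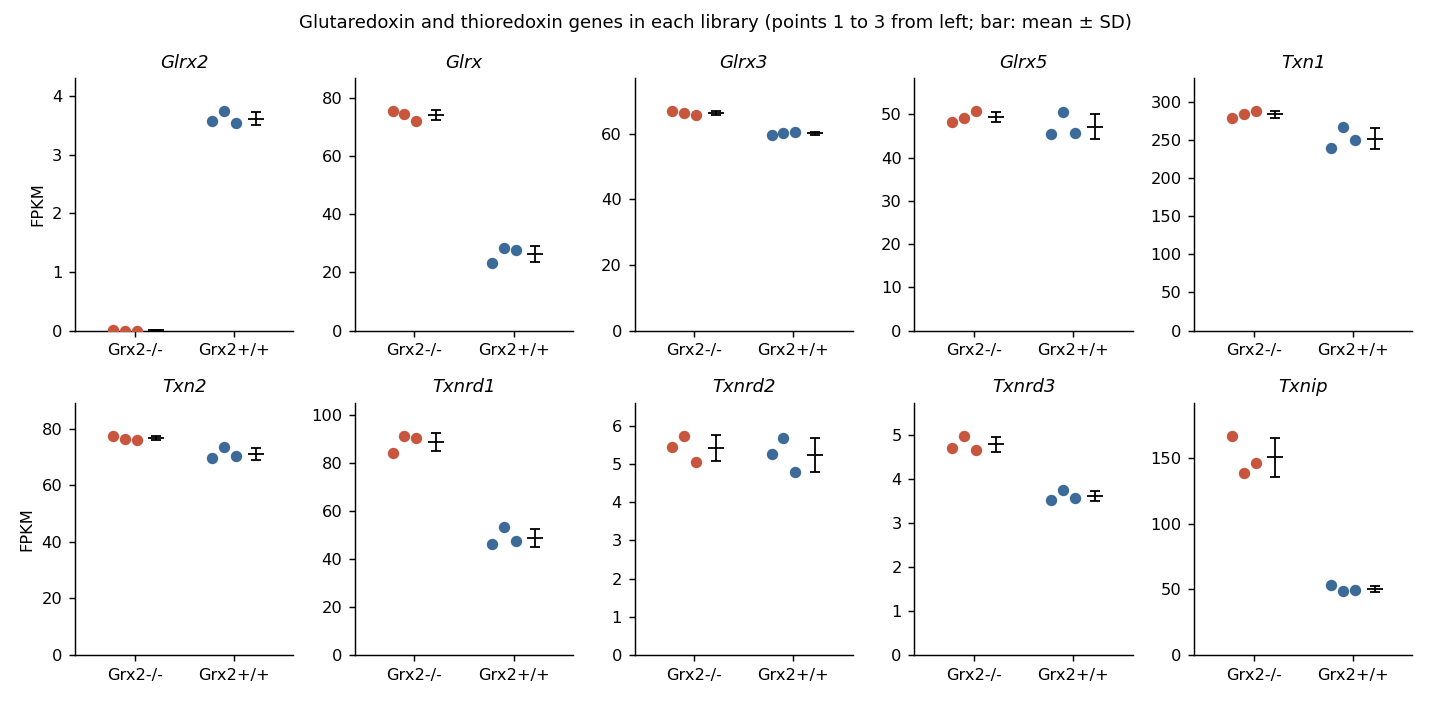
FPKM of the 10 genes in each library, Grx2-/- in red on the left and Grx2+/+ in blue on the right, with the mean and SD of 3 libraries as a black bar; every axis starts at 0. The groups do not overlap for 8 genes, and overlap for Glrx5 and Txnrd2.

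Glutaredoxins differ in the number of cysteines at their active site. The coding sequences around it are shown to set the deleted gene beside its relatives; they were read from GENCODE M21 transcripts (GRCm38), and capitals mark the cysteine codons of the active site.
Glrx2: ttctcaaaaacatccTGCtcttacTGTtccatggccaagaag
Glrx: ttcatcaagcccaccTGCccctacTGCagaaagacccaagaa
Glrx3 first domain: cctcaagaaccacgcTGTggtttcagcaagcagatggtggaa
Glrx3 second domain: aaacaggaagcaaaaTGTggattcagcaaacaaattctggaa
Glrx5: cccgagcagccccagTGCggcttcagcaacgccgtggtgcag
Glrx2 and Glrx have 2 cysteine codons in this window, and Glrx3 and Glrx5 have 1 in each copy. The Glrx2 window lies in exon 3 at chr1:143745077-143745118 on the plus strand, the Glrx window in exon 1 at chr13:75840020-75840061, plus strand, and the Glrx5 window in exon 1 at chr12:105032871-105032912, plus strand. The Glrx3 windows, on the plus strand of chromosome 7, each cross a splice junction, between exons 4 and 5 and between exons 7 and 8. The deposited values are per gene and do not show on which exon the remaining Glrx2 read lay.

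Glrx2, the gene targeted in the knockout, was listed at 0.0046, 0 and 0 FPKM in Grx2-/- replicates 1 to 3, against 3.57, 3.74 and 3.54 FPKM in Grx2+/+ replicates 1 to 3. The groups do not overlap, and the level in each of the 6 libraries matches its labelled genotype. These levels stand for 1, 0 and 0 reads in Grx2-/- libraries and for 756, 800 and 761 reads in Grx2+/+ libraries. Scaled to depth, the Grx2-/- reads were 0.043% of the Grx2+/+ reads, within exact 95% bounds of 0.0011% and 0.24%, which reflect only the error of counting. The fitted log2 fold change was -2.20 ± 0.055 (SE, n = 3 libraries each; adjusted p = 3.61e-08), on the scale of log2(FPKM + 1), which understates the change of a gene at this level. Glrx2 passed the filter on low values only through the Grx2+/+ libraries. By FPKM it was a minor glutaredoxin transcript in Grx2+/+ cells, with 2.63% ± 0.069 (SD, n = 3) of the sum over the family. That share depends on the gene lengths used: in reads, Glrx5 was at 928, 1042 and 949 in the same libraries.

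Glrx encodes glutaredoxin 1, the cytosolic enzyme that shares the pair of active-site cysteines with Glrx2. It was at 75.3, 74.4 and 72.1 FPKM in Grx2-/- libraries, against 23.1, 28.3 and 27.5 FPKM in Grx2+/+ libraries. Each Grx2-/- value was far above the highest Grx2+/+ value, and the spread within a group was small beside that gap. The log2 fold change was 1.46 ± 0.070 (adjusted p = 7.69e-07), a ratio of means of 2.81. Of all tested genes, 5.06% changed by as much or more in either direction.

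The monothiol members moved little. Glrx3, a cytosolic carrier of iron-sulfur clusters with a pair of glutaredoxin domains, was at 66.8, 66.2 and 65.7 FPKM in Grx2-/- libraries and at 59.5, 60.2 and 60.5 FPKM in Grx2+/+ libraries. The groups were tight and did not overlap, and the log2 fold change was 0.14 ± 0.028 (adjusted p = 0.003). That is 0.053 above the median of all tested genes, which was itself at 0.085; with median-of-ratios scaling the value was 0.038 (adjusted p = 0.279) and with quantile normalization 0.018 (adjusted p = 0.608). Glrx5, which takes part in the assembly of iron-sulfur clusters in mitochondria, was at 48.2, 49.3 and 50.7 FPKM in Grx2-/- libraries, and at 45.4, 50.5 and 45.7 FPKM in Grx2+/+ libraries. Replicate 2 of Grx2+/+ lay within the Grx2-/- range, so the groups overlapped, and the log2 fold change of 0.066 had a 95% interval of -0.043 to 0.18 (adjusted p = 0.244). Without that replicate it was 0.11 and passed (adjusted p = 0.0297), and it also passed without both libraries that stand apart (0.13, adjusted p = 0.00904), while it was -0.034 with median-of-ratios scaling and -0.053 with quantile normalization.

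Summed over the 4 genes, glutaredoxin transcript was higher in Grx2-/- cells although Glrx2 was gone. The sum was 190.3, 189.9 and 188.5 FPKM in Grx2-/- libraries, against 131.6, 142.7 and 137.3 FPKM in Grx2+/+ libraries, a ratio of 1.38. The groups did not overlap (exact two-sided permutation test, p = 0.1, the smallest that 3 against 3 libraries can give). Glrx made up 39.0% ± 0.67 of the sum in Grx2-/- libraries and 19.1% ± 1.38 in Grx2+/+ libraries (SD, n = 3 each). Glrx3 made up 34.9% ± 0.15 in Grx2-/- libraries, against 43.8% ± 1.53 in Grx2+/+ libraries, and Glrx5 26.1% ± 0.79 against 34.4% ± 1.04. Sums of FPKM depend on the gene length behind each value, and the step between neighbouring values implied 5195 bases for Glrx2, 1328 for Glrx, 2852 for Glrx3 and 501 for Glrx5. For Glrx5 the GENCODE M21 transcript has 2925 bases, so its FPKM, and its place among the other levels, depend on the short model used. The transcripts of Glrx2 and Glrx3 have 3337 and 1685 bases, so their shares depend on the model as well.

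**Figure D2:**
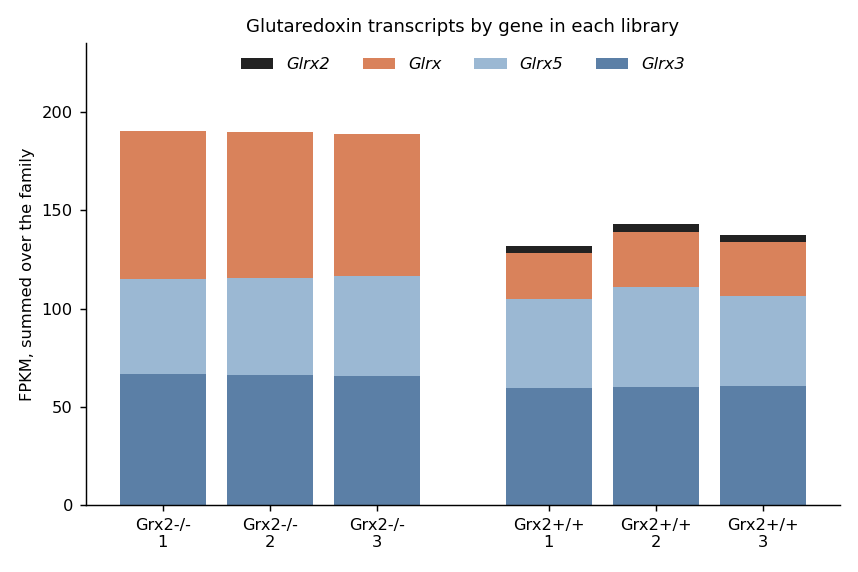
FPKM of the 4 glutaredoxin genes stacked for each library, Grx2-/- libraries on the left and Grx2+/+ libraries on the right. The stacks reach 188.5 to 190.3 FPKM in Grx2-/- libraries and 131.6 to 142.7 FPKM in Grx2+/+ libraries, and the orange Glrx share is larger in Grx2-/- libraries while the black Glrx2 cap is missing.

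The thioredoxins share an active site with a pair of cysteines, shown here to set the cytosolic form beside the mitochondrial one; capitals again mark cysteine codons, from the same annotation.
Txn1: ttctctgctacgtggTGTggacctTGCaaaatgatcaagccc
Txn2: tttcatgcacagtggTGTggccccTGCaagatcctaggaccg
The cysteine codons are the same in both genes, as is the codon just before the first of them. Txn1 lies on the minus strand, its window in exon 2 at chr4:57951806-57951847, and the Txn2 window, on the minus strand of chromosome 15, crosses the junction of exons 1 and 2.

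Txn1, cytosolic thioredoxin, was the most abundant member in both genotypes. It was at 279.4, 285.0 and 288.0 FPKM in Grx2-/- libraries, against 239.3, 266.9 and 249.8 FPKM in Grx2+/+ libraries. The groups did not overlap, but the Grx2+/+ libraries were widely spread, with an SD of 13.9 FPKM around a mean of 252 FPKM. The log2 fold change was 0.17 ± 0.043 (adjusted p = 0.00745), and it did not pass with median-of-ratios scaling (0.072, adjusted p = 0.134) or quantile normalization (0.099, adjusted p = 0.0562). Txn2, mitochondrial thioredoxin, was at 77.6, 76.3 and 76.2 FPKM in Grx2-/- libraries, against 69.5, 73.7 and 70.2 FPKM in Grx2+/+ libraries. Its log2 fold change was 0.11 ± 0.033 (adjusted p = 0.0212). This was the least stable call among the members: it did not pass without Grx2-/- replicate 3 (adjusted p = 0.0566), without Grx2+/+ replicate 1 (0.0789) or without Grx2+/+ replicate 3 (0.0832), nor with median-of-ratios scaling (0.0067, adjusted p = 0.855), and the sign turned with quantile normalization (-0.015, adjusted p = 0.696). The difference between the paralogs, Txn1 minus Txn2 on the log2(FPKM + 1) scale, was 1.88 ± 0.036 in Grx2-/- libraries and 1.81 ± 0.038 in Grx2+/+ libraries (SD, n = 3 each; exact two-sided permutation test, p = 0.2).

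The reductases carry a selenocysteine as the last residue but one, encoded by a TGA codon that is read through when a structure in the message recruits the selenocysteine machinery. The last coding bases of the 3 genes are shown to their stop codon, with the cysteine codon and the selenocysteine TGA in capitals.
Txnrd1: atcctccagtctggcTGCTGAggttaa
Txnrd2: cctactgtgactggtTGCTGAggctaa
Txnrd3: attactcagaaaggcTGCTGAggctag
These lie on plus strands at chr10:82896019-82896045 (exon 15), chr16:18477754-18477780 (exon 17) and chr6:89674771-89674797 (exon 16) of GRCm38. The capitalised codons are the same in all 3 genes.

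Txnrd1, the cytosolic reductase and a known target of the oxidative stress regulator NRF2, was at 84.3, 91.4 and 90.4 FPKM in Grx2-/- libraries, against 46.1, 53.2 and 47.3 FPKM in Grx2+/+ libraries. The lowest Grx2-/- library was well above the highest Grx2+/+ library. The log2 fold change was 0.85 ± 0.058 (adjusted p = 5.57e-06), and 0.73 to 0.95 over the 15 alternatives, all of which passed. Txnrd3, which carries a glutaredoxin domain in front of its reductase and is best known from the testis, was at 4.70, 4.98 and 4.66 FPKM in Grx2-/- libraries, against 3.52, 3.75 and 3.56 FPKM in Grx2+/+ libraries. The groups did not overlap and the log2 fold change was 0.33 ± 0.051 (adjusted p = 0.000677), 0.24 above the median of all tested genes. Txnrd2, the mitochondrial reductase, was at 5.44, 5.74 and 5.06 FPKM in Grx2-/- libraries, against 5.25, 5.67 and 4.78 FPKM in Grx2+/+ libraries. These ranges overlap almost fully, and the log2 fold change of 0.042 had a 95% interval of -0.12 to 0.20 (adjusted p = 0.608); the change of Txnrd1 lies outside it.

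The difference between the reductase paralogs was tested on its own. Txnrd1 minus Txnrd2 on the log2(FPKM + 1) scale was 3.73, 3.78 and 3.92 in Grx2-/- libraries, against 2.91, 3.02 and 3.07 in Grx2+/+ libraries. The groups do not overlap, and the paralogs differed by 0.81 more in Grx2-/- libraries (exact two-sided permutation test, p = 0.1, the smallest possible). Summed reductase transcript was 98.9 ± 3.98 FPKM in Grx2-/- libraries and 57.7 ± 4.23 FPKM in Grx2+/+ libraries (SD, n = 3 each; exact permutation test, p = 0.1), and summed thioredoxin transcript was 360.8 ± 3.63 FPKM in Grx2-/- libraries and 323 ± 16.1 FPKM in Grx2+/+ libraries (exact permutation test, p = 0.1). With median-of-ratios scaling the difference in summed thioredoxin was 13.7 FPKM (exact permutation test, p = 0.2), against 37.6 FPKM as deposited.

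Because Txnrd1 is a known NRF2 target, the promoters of all 10 genes were searched for the core of the antioxidant response element, TGACNNNGC, on both strands, in RefSeq windows of 300 bases (250 before to 50 after each annotated start; GRCm38.p6). All 10 genes had an entry, with 16 windows in all, and 1 window, at 1 of the annotated starts of Txnrd1, held a match; 12.4% of all 32851 windows hold one. The 100 bases around the match, chr10:82859056-82859155 on the plus strand, are shown with the match in capitals, read on the opposite strand and starting 92 bases before the annotated start.
Txnrd1 promoter: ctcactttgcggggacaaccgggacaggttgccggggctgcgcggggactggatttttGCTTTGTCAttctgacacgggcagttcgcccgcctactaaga
A match describes the letters of the window and is not a measured binding site, and windows without a match show nothing about binding.

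Txnip, an arrestin-like protein that blocks thioredoxin and limits glucose uptake, had the largest fitted rise among the members, with a 95% interval of 1.40 to 1.72 that overlaps the 1.30 to 1.62 of Glrx. It was at 166.9, 138.6 and 145.8 FPKM in Grx2-/- libraries, against 53.0, 48.3 and 49.3 FPKM in Grx2+/+ libraries. Replicate 1 was the highest of the Grx2-/- libraries, and every Grx2-/- value was far above the Grx2+/+ range. The log2 fold change was 1.56 ± 0.069 (adjusted p = 4.87e-07), with 4.36% of tested genes changed as much or more in either direction, and it was 1.48 to 1.62 with 1 library left out. Gm15441, an antisense transcript that lies across Txnip, was at 0.472 FPKM in Grx2-/- libraries and 0.296 FPKM in Grx2+/+ libraries, far below Txnip in each genotype; no strand setting is given in the sources used here, so reads of the pair cannot be told apart. Txnip was also higher relative to its target: the log2 ratio of Txnip to Txn1 FPKM was -0.743, -1.04 and -0.982 in Grx2-/- libraries and -2.17, -2.47 and -2.34 in Grx2+/+ libraries (difference 1.40; exact two-sided permutation test, p = 0.1, the smallest possible).

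**Figure D3:**
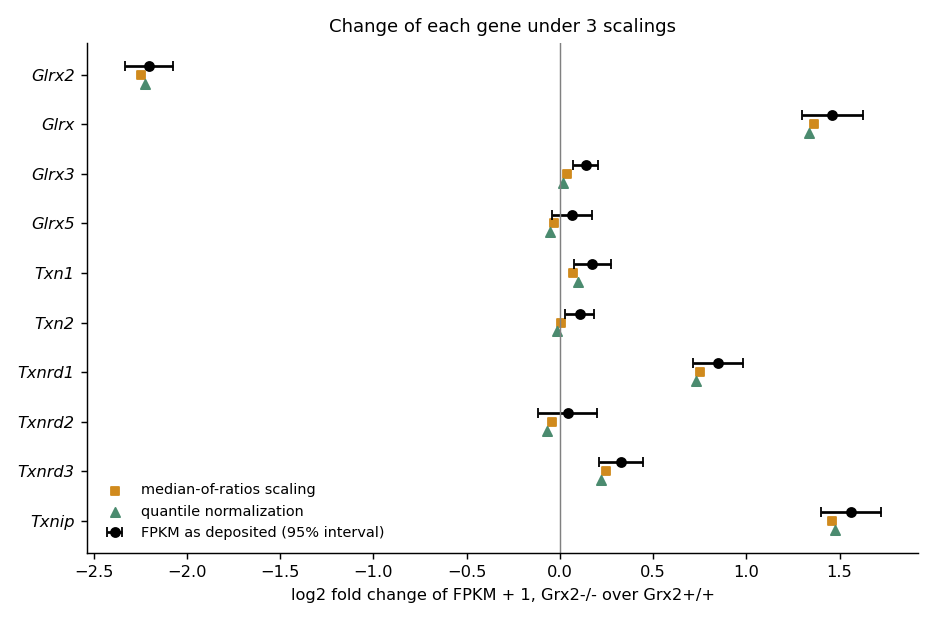
Log2 fold change of FPKM + 1, Grx2-/- over Grx2+/+, for each gene, with the 95% interval for values as deposited (black) and the value under median-of-ratios scaling (orange squares) and quantile normalization (green triangles). Glrx2, Glrx, Txnrd1, Txnrd3 and Txnip stay on their side of 0 under all 3 scalings, while Glrx3, Txn1 and Txn2 lie within 0.2 of 0 and Txn2 turns below 0 with quantile normalization. Glrx5 and Txnrd2, which did not pass, lie below 0 under both other scalings.

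The order of the levels, which depends on the gene lengths behind FPKM, differed between the genotypes. In Grx2-/- cells it was Txn1, Txnip, Txnrd1, Txn2, Glrx, Glrx3, Glrx5, Txnrd2, Txnrd3 and Glrx2, and no neighbours in that order overlapped between libraries. In Grx2+/+ cells it was Txn1, Txn2, Glrx3, Txnip, Txnrd1, Glrx5, Glrx, Txnrd2, Glrx2 and Txnrd3, where Txnip, Txnrd1 and Glrx5, at 50.2, 48.9 and 47.2 FPKM, overlapped as neighbours, as did Glrx2 and Txnrd3. Txnip stood in the second place in Grx2-/- cells and the fourth in Grx2+/+ cells, and Glrx in the fifth place in Grx2-/- cells and the seventh in Grx2+/+ cells. Copies could blur some of these levels: a processed pseudogene of Glrx3 and Txn-ps1, a pseudogene of Txn1, match their parents at 99.1% and 95.8% of bases and are not in the table, so the levels of Glrx3 and Txn1 are uncertain to that extent.

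Genes that work with these proteins were described in 6 lists, chosen with results of these data known; the macrophage, neutrophil and endothelial markers given above moved in the same libraries, and their part in these counts was not tested. Proteins that share the thioredoxin fold changed in both directions: of 15 tested, 5 rose, 6 fell and 4 did not pass, with a median log2 fold change of 0.0022 beside 0.085 for all tested genes, of which 42.7% passed as higher and 24.6% as lower. Txndc12, a thioredoxin-like protein of the endoplasmic reticulum, was at 60.6 ± 1.64 FPKM in Grx2-/- libraries and 41.7 ± 1.40 in Grx2+/+ libraries (0.53 ± 0.038). Among membrane-bound relatives Tmx4 (0.34) and Tmx2 (0.30) rose and Tmx1 fell by 0.35 on the log2 scale. Nxn, nucleoredoxin, was lower too (-0.25), and Txndc5 (0.16) and Txnl1 (0.16) were higher, but neither passed with median-of-ratios scaling, under which 3 of the list were higher and 7 lower.

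Enzymes that draw on thioredoxin or glutaredoxin for electrons, or supply them, had 8 of 16 members that rose, 5 that fell and 3 that did not pass (median 0.11), near the 42.7% higher and 24.6% lower of all tested genes. The subunits of ribonucleotide reductase, which makes DNA precursors and is recharged by both systems, went in different directions. Rrm1 was at 80.9 ± 6.05 FPKM in Grx2-/- libraries and 52.3 ± 2.11 in Grx2+/+ libraries (0.62 ± 0.058), and Rrm2, the small subunit of dividing cells, at 131 ± 5.62 and 61.9 ± 12.2 FPKM (1.08 ± 0.12), while Rrm2b, the subunit of non-dividing cells, was at 2.24 ± 0.135 and 2.91 ± 0.145 FPKM (-0.27 ± 0.059). G6pdx, which generates NADPH in the pentose phosphate pathway, rose (0.71 ± 0.038), and Nnt, which generates it in mitochondria, fell (-0.18 ± 0.044), while Idh2, another mitochondrial source, passed as higher (0.23 ± 0.054). Of the thioredoxin-dependent peroxidases, Prdx1 rose (1.24), mitochondrial Prdx3 passed as higher (0.17), cytosolic Prdx2 had -0.023 and did not pass, and Prdx5 fell (-0.15), a call lost with no filter on low values, and without Grx2-/- replicate 1 or 3 or Grx2+/+ replicate 2. Msrb1, a selenoprotein methionine sulfoxide reductase, was lower at 40.9 ± 4.32 FPKM in Grx2-/- libraries, against 65.8 ± 2.28 in Grx2+/+ libraries, as was Msrb3 (-0.16). Gsr, glutathione reductase, which recharges the glutathione that glutaredoxins use, had -0.088 and did not pass (adjusted p = 0.23). Idh2 and Prdx3 did not pass under either of the other scalings, while Prdx2 and Gsr passed as lower under both. Prdx2, Prdx3, Idh2 and Gsr were named after their values were seen. Under each of the other scalings the list had 6 members higher and 7 lower.

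Partners of glutaredoxins in iron-sulfur metabolism had 7 of 14 tested members that rose, 2 that fell and 5 that did not pass (median 0.13), where 42.7% of all tested genes were higher and 24.6% lower. Bola3, a mitochondrial partner of Glrx5, was at 8.56 ± 0.090 FPKM in Grx2-/- libraries and 6.01 ± 0.438 in Grx2+/+ libraries (0.45 ± 0.055), and the scaffold gene Iscu (0.37), Isca2 (0.27) and Fech (0.21), ferrochelatase, rose as well. Ireb2, an iron-regulatory RNA-binding protein, was lower (-0.54 ± 0.067), as was Hspa9 (-0.19), the mitochondrial chaperone that releases clusters. Under median-of-ratios scaling 5 members of this list were higher and 3 lower. Quantile normalization left 3 higher and 3 lower, and Isca2 and Fech did not pass.

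Of 10 tested relatives and partners of Txnip, 5 rose, 4 fell and 1 did not pass (median 0.16), beside 42.7% higher and 24.6% lower over all tested genes. Of its arrestin-like relatives Arrdc1, Arrdc3 and Arrdc4 passed as higher, Arrdc2 had 0.091 and did not pass (adjusted p = 0.306), and Arrdc5 was not tested; Arrdc1, Arrdc2 and Arrdc5 were named after their values were seen. Arrdc3 was at 8.59 ± 0.412 FPKM in Grx2-/- libraries and 4.09 ± 0.323 in Grx2+/+ libraries (0.91 ± 0.062), and Arrdc4 at 13.4 ± 2.36 and 7.74 ± 0.051 FPKM (0.71 ± 0.10). Mlxip, which encodes the glucose-sensing activator MondoA of Txnip and Arrdc4, was lower (-0.21 ± 0.047). Its relative Mlxipl was at 0.010 FPKM in both genotypes and was not tested. Mlx, of the same list, passed as higher (0.22 ± 0.043), though not with quantile normalization. Mlxipl and Mlx were named after their values were seen. Itch, a ubiquitin ligase that marks Txnip for degradation, fell (-0.39 ± 0.041), and so did Slc2a1 (-0.35 ± 0.060), the glucose transporter that Txnip removes from the cell surface. Ddit4, whose product binds Txnip, fell by 1.80 on the log2 scale. Nlrp3, an inflammasome sensor of myeloid cells and Txnip partner, rose (1.11 ± 0.078). Of the 10 macrophage markers, 8 were higher in the same libraries.

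The machinery that inserts selenocysteine had 5 of 8 members that rose, 1 that fell and 2 that did not pass (median 0.21); over all tested genes 42.7% were higher and 24.6% lower. Sephs2, which makes the selenium donor, was at 26.8 ± 2.46 FPKM in Grx2-/- libraries and 17.7 ± 1.46 in Grx2+/+ libraries (0.57 ± 0.078), and Sepsecs, which forms selenocysteine on its transfer RNA, rose (0.30 ± 0.061). Scly, which recovers selenium from free selenocysteine, fell (-0.25 ± 0.064). Trnau1ap (0.20) and Eefsec (0.28), the elongation factor for selenocysteine, rose, but neither passed under the other scalings, each of which left 2 members of the list higher. Without Grx2+/+ replicate 3, 3 members were higher.

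NRF2, the factor that drives Txnrd1 and Txn1 under oxidative stress, was followed through 12 regulators and targets, of which 9 rose, 1 fell and 2 did not pass (median 0.74), against 42.7% higher and 24.6% lower among all tested genes. Gclm and Gclc, the subunits of the enzyme that starts glutathione synthesis, were at 64.5 ± 1.23 and 17.0 ± 0.405 FPKM in Grx2-/- libraries, against 18.6 ± 2.35 and 7.82 ± 0.521 FPKM in Grx2+/+ libraries. Their log2 fold changes were 1.75 ± 0.077 and 1.03 ± 0.052, and those of Nqo1, Hmox1 and Srxn1 were 3.50, 1.49 and 1.46. Slc7a11, the cystine importer, fell instead, at 1.18 ± 0.131 FPKM in Grx2-/- libraries and 2.08 ± 0.309 in Grx2+/+ libraries (-0.50 ± 0.087). Nfe2l2 itself (0.33) and its inhibitor Keap1 (0.37), both named after their values were seen, passed as higher too. Under each of the other scalings 9 of these 12 were higher and 2 lower.

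**Figure D4:**
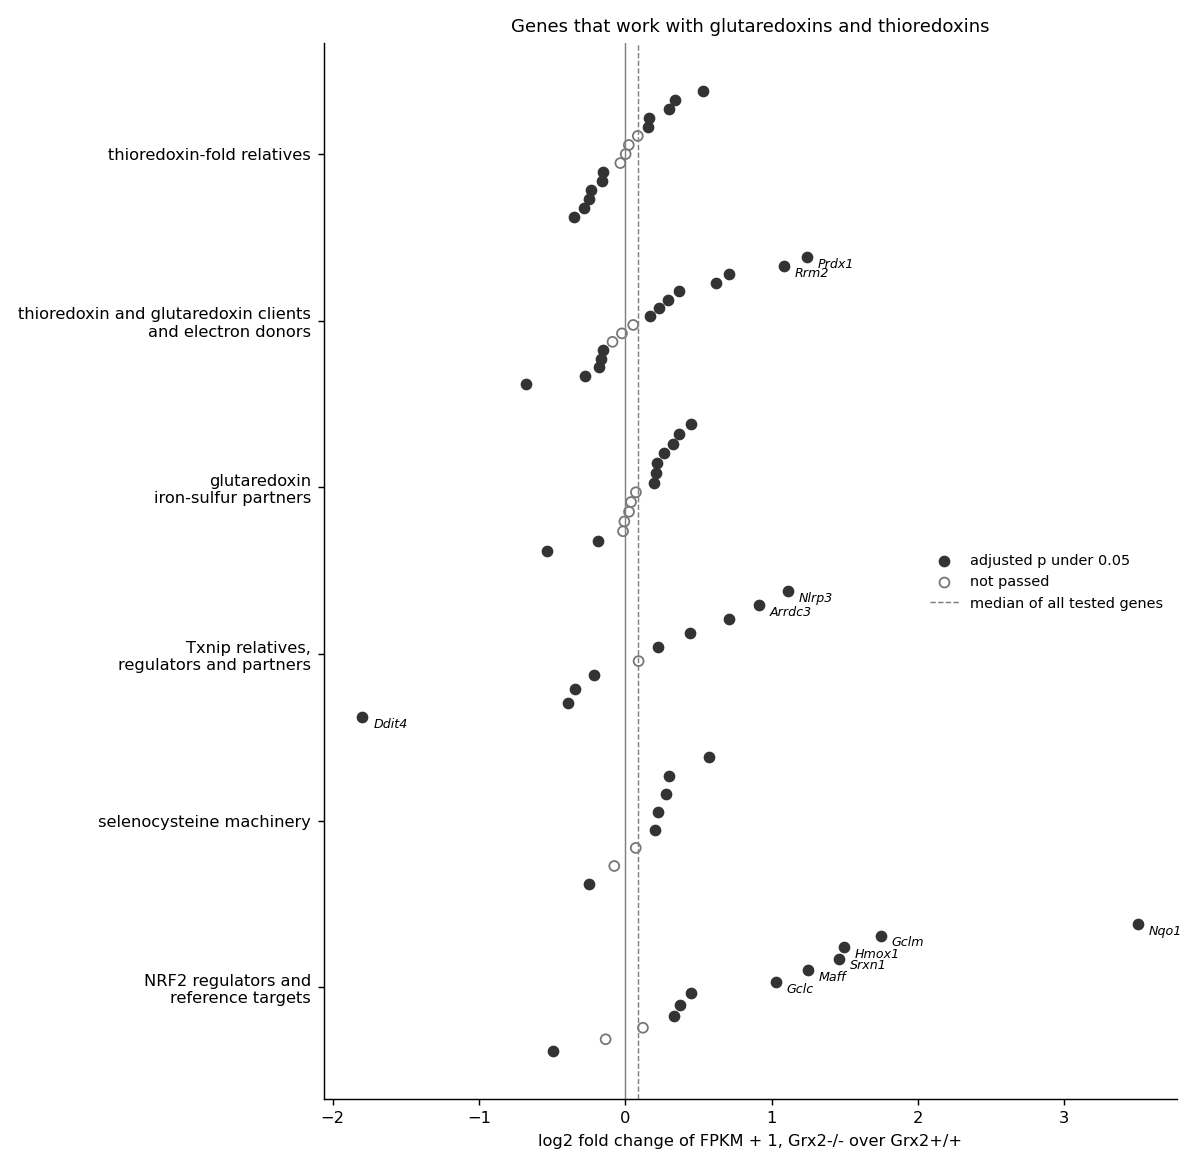
Log2 fold change of FPKM + 1, Grx2-/- over Grx2+/+, for each tested gene of 6 lists, sorted within a list; filled points passed the test, open points did not, and genes beyond 0.8 in either direction are named. The dashed line marks the median of all tested genes at 0.085, and the NRF2 list lies furthest to its right, with a median of 0.74.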

How the data were processed

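RNA-seq libraries of 3 Grx2-/- and 3 Grx2+/+ cell samples were grouped by title. Per the labels' protocols, RNA was extracted with TRIzol and libraries were made with a VAHTS Universal V6 kit. The authors deposited FPKM values, 1 column per library; per the submitters' processing notes, HISAT2, HTSeq, R 3.2.0 and build GRCm39 were used, while the annotation, any filter and the strandedness of counting are not stated there. FPKM corrects for depth and length, not for composition. Each value is a whole multiple of 1 read's worth, and whole reads were worked back for 22984 genes (tolerance 0.0001 reads); listed genes held 99.72% to 99.78% of the depth.

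Genes with a mean of at least 1 FPKM (11083) were fitted as log2(FPKM + 1) with limma 3.58.1 in R 4.3.3 (trend), Grx2-/- against Grx2+/+. The same fit was run on simulated counts without shifts between libraries of a group, and its outcome is not used here. Sums and ratios were compared by exact permutation of libraries. Named are the 10 members and, per list, the 5 smallest p and calls opposite to most. Members and lists were chosen with earlier results of these data known. Alternatives were a pseudocount of 0.1, no filter, a minimum of 5 FPKM, 2 other scalings, no trend, voom, the replicate number as a block and each library left out. Sequences came from GENCODE M21 and RefSeq (GRCm38), another build than the authors'. Figures used matplotlib 3.10.9. Some items are not reported here.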

Additional observations from a re-analysis of the deposited data

How the results depend on the processing

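The calls and directions of Glrx, Txnrd1, Txnrd3 and Txnip held under every alternative in which they were tested. Those of Glrx2 held too, but it is the deleted gene, so its outcome was set by the design and nothing is read from it. A minimum of 5 FPKM left Glrx2 and Txnrd3 untested. Among 148 member results under alternatives, 137 kept direction and side of the threshold, or stayed short of it. Scaling mattered most: with median-of-ratios scaling and with quantile normalization 5 members passed instead of 8, and 4 of them higher instead of 7, since Glrx3, Txn1 and Txn2 no longer passed. Txn2 was at -0.015 with quantile normalization. Quantile normalization lowered the median of all tested genes to -0.026, against 0.085 as deposited, and the share of calls that were higher was 63.5% as deposited, 50.1% with median-of-ratios scaling and 46.4% with quantile normalization. With 1 library left out, 7 to 9 members and 6556 to 7542 genes passed. Without both libraries that stand apart, a choice made after seeing the data, 9 members passed. With the replicate number as a block, 8 members and 7562 genes passed. The labels do not say if same-numbered libraries were paired. Deviations of same-numbered libraries correlated at 0.107, 0.124 and 0.0199, and those of differently numbered ones at -0.129 to 0.0598. Pairing cannot be settled from these values. All permutation tests of sums and ratios kept their direction with median-of-ratios scaling and with each library left out, but in these designs no p under 0.1 is possible. Depth limits Glrx2 in Grx2-/- cells, with 1 read in 3 libraries; the other members had 377 reads or more in each library.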

Other observations

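Genes with the profile most like that of Glrx2 and of Txnip over the 6 libraries were sought by the distance between profiles of log2(FPKM + 1), each set to its own Grx2+/+ mean; with a pair of groups this measure mostly matches the size of the difference between genotypes. Nearest to Glrx2 were Sema4f, a semaphorin, with 0.158 FPKM in Grx2-/- libraries and 4.47 in Grx2+/+ libraries (distance 0.0763), H2-Aa, an MHC class II chain, with 0.0213 and 3.74 FPKM (0.148), and Irx3, a homeobox factor, with 3.24 and 19.4 FPKM (0.169). Sema4f and H2-Aa, like Glrx2, met the filter on low values only through the Grx2+/+ libraries. Their nearness reflects low values in Grx2-/- libraries and a similar level in Grx2+/+ libraries, and nothing more is read from it. Nearest to Txnip was Dbp, a transcription factor with daily rhythm, with 8.51 FPKM in Grx2-/- libraries and 2.23 in Grx2+/+ libraries (0.072). Next were Pdgfb, a growth factor, with 10.5 and 2.98 FPKM (0.125), and Igfbp4, a binding protein of insulin-like growth factors, with 253 and 89.0 FPKM (0.130).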
